A study of Mus musculus with 12 samples.

Results

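The 10 genes described here encode subunits of the Polycomb repressive complexes: *Ezh1*, *Ezh2*, *Suz12*, *Eed*, and *Jarid2* of Polycomb repressive complex 2 (PRC2), and *Ring1*, *Rnf2*, *Bmi1*, *Cbx2*, and *Cbx7* of Polycomb repressive complex 1 (PRC1). They were chosen by symbol among the 26608 genes in the count files, and all 10 were found and passed the filter on low counts, as did 16035 genes in total. The RNA came from CD4+ T cells that were negative for YFP, which reports FOXP3 expression. They were sorted from spleen pooled with inguinal and cervical lymph nodes, each of the 12 libraries was from 1 mouse aged 14 weeks, and every group had 4. WT mice carried the Foxp3-Cre allele alone (*Foxp3Cre WT*). DKO-moderate and DKO-severe mice were *Foxp3-Cre Tet2/3 fl/fl*, in which exons of *Tet2* and *Tet3* are deleted in cells that express or have expressed *Foxp3*, and the authors assigned them to the moderate or severe group by the number of cells in spleen and lymph nodes. Cre is thus shared by all 3 groups. The sorted cells include conventional CD4+ T cells, in which the floxed alleles should be intact, and ex-Treg cells, which have lost FOXP3, and the authors describe the Foxp3-Cre allele as leaky.

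PRC2 places a repressive methyl mark on histone H3. Its catalytic subunit is EZH1 or EZH2, which are alternatives to each other, and EED and SUZ12 are needed for activity. PRC1 carries a RING1 or RNF2 ubiquitin ligase that marks histone H2A, paired with a PCGF protein such as BMI1, and its CBX subunits read the PRC2 mark. In T cells EZH2 is known as a gene of dividing cells that is induced upon activation, whereas EZH1 is found in resting cells, and loss of EZH2 disturbs helper and regulatory T cell differentiation.

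Each library held between 29254260 and 42133536 reads on genes. Levels are given as CPM, a gene's reads relative to the library total with scaling between libraries by edgeR's TMM method. All comparisons used the quasi-likelihood test of edgeR, adjusted over the 16035 genes, and a gene was called at an adjusted p under 0.05. Of 7 T cell markers listed, the summed level was between 4016.4 and 4955 CPM in every library. The single markers did not all hold level. In DKO-severe against WT, 2 were called higher and 2 lower, beside 26.6% and 25.9% of all genes. Their log2 fold changes ran from -1.1 to 0.47 over the 7. Markers of other cells moved with the groups: the summed level of 10 neutrophil genes was 0.0273 to 2.36 CPM in WT, 0.186 to 8.66 CPM in DKO-moderate, and 10.4 to 2236 CPM in DKO-severe, with 9 of the 10 at 0 in WT 1 and WT 4 and none at 0 in DKO-severe. The summed level of 8 B cell genes was 6.81 to 212.4 CPM in WT, 21.5 to 47.5 CPM in DKO-moderate, and 70.4 to 383 CPM in DKO-severe, and its members did not move together. *Cd79a* and *Ms4a1* were highest in WT 3, DKO-severe 1, and DKO-severe 2, whereas *Blk* (34.1 and 116.7 CPM) and *Pax5* (13.0 and 15.8 CPM) were highest in DKO-severe 3 and DKO-severe 4. Results are also given without WT 3, DKO-severe 1, and DKO-severe 2, a choice made after seeing the data, which leaves in DKO-severe 4 with a B cell sum of 154.4 CPM, above that of DKO-severe 1 (127.1 CPM). *Tet3* fell in DKO-severe by 1.03 on the log2 scale (SE 0.19; edgeR adjusted p = 0.000859), whereas the *Tet2* count, which includes exons outside the deleted part, differed by 0.22 (adjusted p = 0.234). In bulk samples, fewer cells of a type and less RNA per cell cannot be told apart.

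*Ezh2* (chr6:47530139-47595341, minus strand; positions of genes are on GRCm38) was the member that changed in every comparison. Its level was 47.0, 47.0, 47.3, and 52.4 CPM in the 4 WT libraries, 76.8, 69.4, 77.5, and 72.6 CPM in DKO-moderate, and 109.4, 92.2, 102.3, and 136.8 CPM in DKO-severe. The groups did not overlap in any of the 3 comparisons, and every DKO-moderate library lay between the WT and the DKO-severe libraries. *Ezh2* rose 2.28-fold against WT in DKO-severe (log2 fold change 1.19, SE 0.11; edgeR adjusted p = 9.72e-06) and 1.53-fold in DKO-moderate (0.61, SE 0.11; adjusted p = 0.00264), and between the knockout groups DKO-severe was 1.49-fold higher (0.57, SE 0.11; adjusted p = 0.00567). Both comparisons with WT share the WT libraries. The call held in all 12 fits that left out 1 library, for each comparison. Without WT 3, DKO-severe 1, and DKO-severe 2 the log2 fold changes were 1.29, 0.60, and 0.69. The highest *Ezh2* level, 136.8 CPM, was in DKO-severe 4, the DKO-severe library with the lowest neutrophil sum (10.4 CPM), whose B cell sum was 154.4 CPM.

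**Figure D1:**
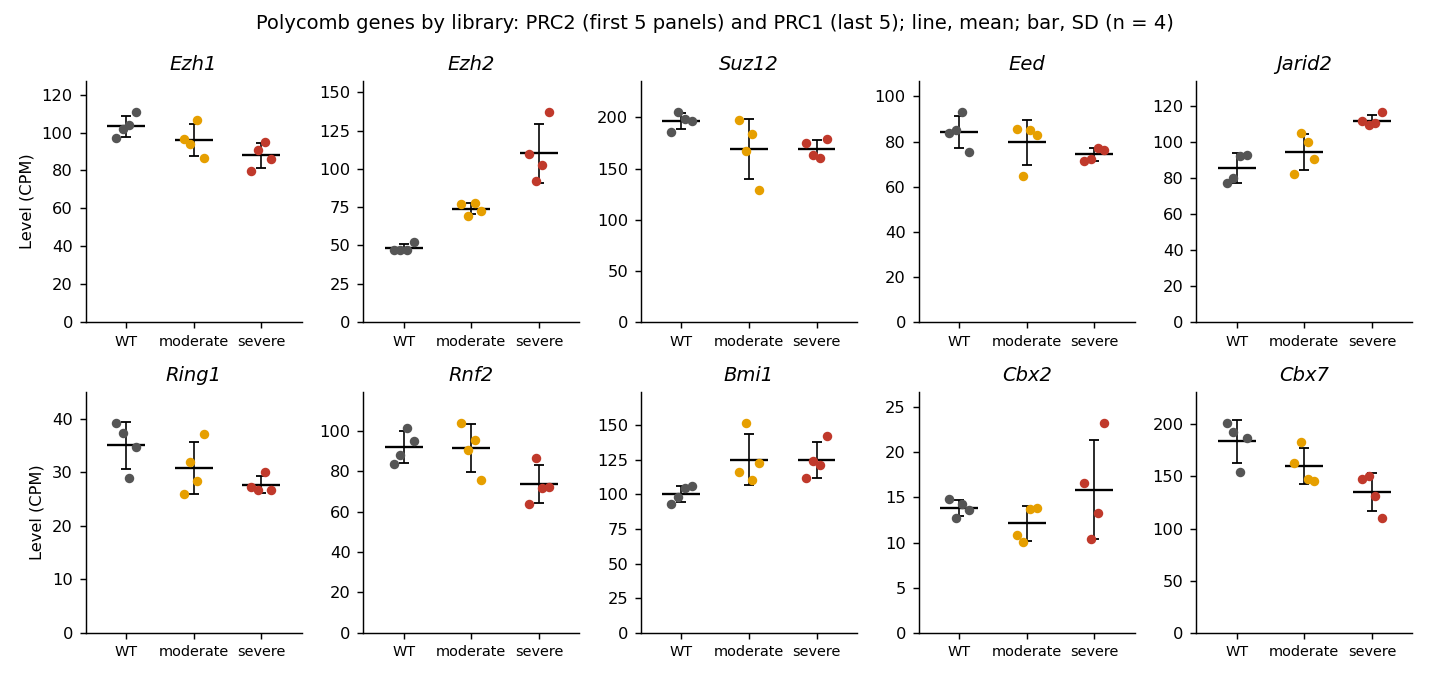
Level of each of the 10 Polycomb genes (CPM, TMM-scaled, axis from 0) in the 4 libraries of WT, DKO-moderate, and DKO-severe; points are libraries, lines are means, and bars are SD. *Ezh2* steps up from a mean of 48.4 CPM in WT to 74.1 CPM in DKO-moderate and 110.2 CPM in DKO-severe with no overlap, whereas *Cbx7* goes down from 183.6 to 134.7 CPM.

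*Ezh1* (chr11:101191115-101226463, minus strand), the other catalytic subunit, went the other way in DKO-severe and by much less. Its level was 97.1, 102, 103.9, and 110.6 CPM in WT, 96.5, 94.2, 106.7, and 86.7 CPM in DKO-moderate, and 79.7, 90.8, 95.1, and 86.3 CPM in DKO-severe. The DKO-severe libraries were all below the WT libraries, and DKO-moderate overlapped both. *Ezh1* fell in DKO-severe by 0.23 on the log2 scale (SE 0.08; edgeR adjusted p = 0.0295), with differences of -0.11 for DKO-moderate against WT (adjusted p = 0.387) and -0.13 for DKO-severe against DKO-moderate (adjusted p = 0.278). The call is a narrow one: the adjusted p was between 0.0527 and 0.111 without any 1 of WT 2, WT 3, WT 4, DKO-severe 1, DKO-severe 2, and DKO-severe 4, and it was 0.627 when libraries were scaled by their totals alone, a scaling that moves the median gene from -0.01 to 0.18 and leaves *Ezh1* at -0.23 relative to that median.

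Because EZH1 and EZH2 occupy the same place in PRC2, their reads were also compared within each library, which needs no scaling between libraries. The ratio of *Ezh2* to *Ezh1* reads was 0.484, 0.461, 0.455, and 0.474 in the WT group, 0.796, 0.737, 0.726, and 0.838 in DKO-moderate, and 1.37, 1.02, 1.08, and 1.59 in the DKO-severe group. No library of one group reached the range of another, and DKO-severe libraries alone held more *Ezh2* than *Ezh1* reads. On the log2 scale the mean ratio differed by 1.41 between DKO-severe and WT, by 0.72 between DKO-moderate and WT, and by 0.68 between DKO-severe and DKO-moderate. Each of these differences gave p = 0.0286 in a two-sided exact permutation test, the smallest that 4 libraries against 4 can give, and 0.0572 after Benjamini-Hochberg adjustment over the 6 ratio tests, so none passed the correction. Per kilobase of exon, *Ezh2* made up 34.3% ± 0.62 (SD, n = 4) of the *Ezh1* and *Ezh2* sum in the WT group, 46.3% ± 1.67 in DKO-moderate, and 58.0% ± 5.06 in the DKO-severe group.

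The genes whose profile over the 12 libraries was most like that of *Ezh2* were *Cenpe*, a mitotic kinesin (Pearson r = 0.993 on log2 CPM), *Aspm*, a spindle pole gene (0.990), *Esco2*, which acts in sister chromatid cohesion (0.988), *Plxnc1*, a semaphorin receptor (0.987), and *Rad54l*, a gene of homologous recombination (0.986), among 9996 genes with a mean of at least 5 CPM. The groups and the cell mixture are shared by these points, so the correlation is a description. All 20 genes of a proliferation list rose in DKO-severe against WT, with a median log2 fold change of 2.85, compared with 15 of 20 in DKO-moderate against WT (median 1.46) and 16 of 20 in DKO-severe against DKO-moderate (median 1.3). Of all genes tested, 26.6%, 12.3%, and 9.41% were called higher in these comparisons. *Mki67*, a marker of cycling cells, rose from 31.9 ± 12.6 CPM in WT to 89.0 ± 15.6 CPM in DKO-moderate and 299.3 ± 112 CPM in DKO-severe, 9.39-fold over WT (edgeR adjusted p = 1.22e-05). The summed level of the proliferation list was 853.4 to 968.5 CPM in WT, 1242.3 to 1847.1 CPM in DKO-moderate, and 1795.1 to 3451.7 CPM in DKO-severe. Within DKO-severe the 4 libraries had the same order by *Ezh2* and by this sum, with DKO-severe 2 lowest (92.2 and 1795.1 CPM) and DKO-severe 4 highest (136.8 and 3451.7 CPM). Within DKO-moderate they did not: DKO-moderate 4 had the highest proliferation sum, 1847.1 CPM, and an *Ezh2* level of 72.6 CPM, below those of DKO-moderate 1 and DKO-moderate 3. The part of cell division in the *Ezh2* level was not tested.

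**Figure D2:**
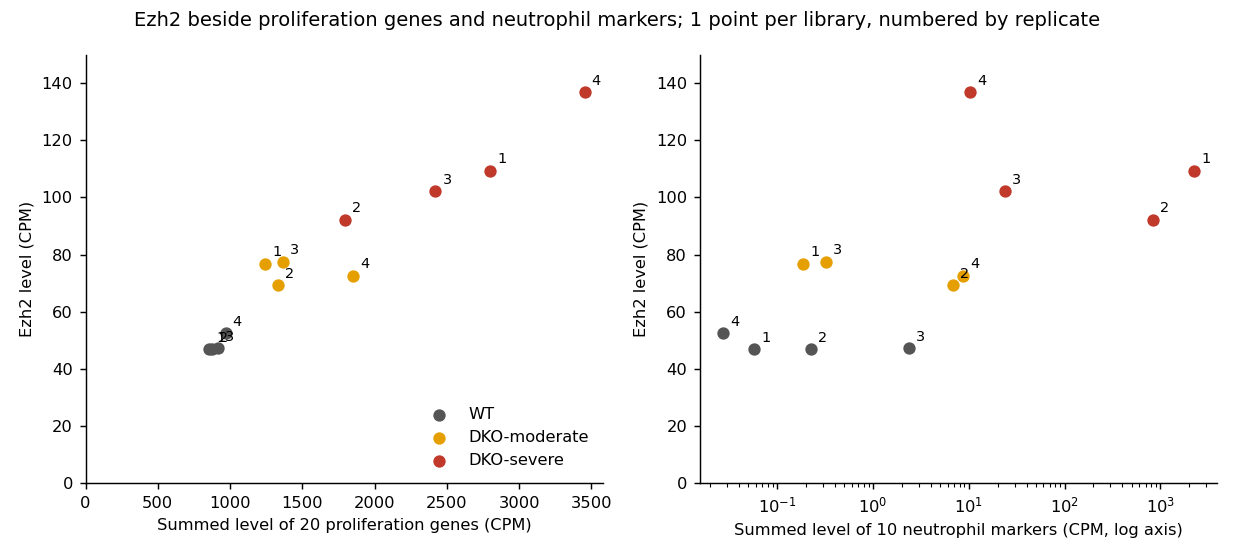
*Ezh2* level (CPM) against the summed level of 20 proliferation genes (left, CPM) and of 10 neutrophil markers (right, CPM, log axis), 1 point per library, colored by group and numbered by replicate. Most libraries with a higher proliferation sum have a higher *Ezh2* level across the groups. DKO-moderate 4 has a higher sum than DKO-severe 2 (1847.1 against 1795.1 CPM) but less *Ezh2* (72.6 against 92.2 CPM). DKO-severe 1, with the highest neutrophil sum (2236 CPM), has an *Ezh2* level of 109.4 CPM between those of DKO-severe 3 and DKO-severe 4.

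*Ezh1* was most like *Lpar5* (r = 0.962), a lysophosphatidic acid receptor, *Setd1b* (0.951), a histone H3 methyltransferase, *Ambra1* (0.951), a regulator of autophagy, *Arl15* (0.951), and *Phf17* (0.951), all with lower means in DKO-severe than in WT. Over the same 12 libraries the 10 naive T cell genes moved in this direction as well: 9 of 10 fell in DKO-severe against WT, 4 in DKO-moderate against WT, and 7 in DKO-severe against DKO-moderate. Of all genes tested, 25.9%, 4.74%, and 10.7% were called lower in these comparisons.

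The promoters of both catalytic subunits are shown because *Ezh2* moved with the cell division genes and *Ezh1*, its alternative, went down. They were searched, on both strands, for the 4 spellings TTTCCCGC, TTTCGCGC, TTTGCCGC, and TTTGGCGC of the E2F consensus, the motif bound by the factors that switch on genes of DNA replication. RefSeq windows from 250 bases before to 50 after a start site were given for 9 of the 10 members (not for *Cbx2*), on GRCm38.p6. The windows of *Ezh2* and *Suz12* held a match, compared with 2.26% of all 32851 windows and 5 of 17 proliferation genes. In *Ezh2* the match starts 4 bases into the RefSeq transcript, counting the start base as the first, and in *Suz12* it starts 219 bases before the start. The *Ezh2* span given above, from GENCODE, begins at 47595341 on the minus strand. That base is outside the RefSeq window (47594981 to 47595280), so the distance in *Ezh2* holds for the RefSeq start only. The stretches below run 5′ to 3′ on the strand of the gene, from 100 bases before to 30 after the start for *Ezh2* (chr6:47595001-47595130, minus strand) and *Ezh1* (chr11:101226434-101226563, minus strand), and over 100 bases that begin 250 before the start for *Suz12* (chr11:79992856-79992955, plus strand). Capitals mark the match. A match is a description of the letters and does not show that a factor binds there.
Ezh2: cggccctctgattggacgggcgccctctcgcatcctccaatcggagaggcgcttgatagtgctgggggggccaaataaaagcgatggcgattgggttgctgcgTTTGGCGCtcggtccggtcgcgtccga
Ezh1: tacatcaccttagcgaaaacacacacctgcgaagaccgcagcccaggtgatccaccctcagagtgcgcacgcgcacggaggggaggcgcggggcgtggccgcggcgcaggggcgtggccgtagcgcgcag
Suz12: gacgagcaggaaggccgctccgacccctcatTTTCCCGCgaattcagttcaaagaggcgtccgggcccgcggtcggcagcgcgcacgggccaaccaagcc

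The core subunits *Suz12* (chr11:79993106-80034123, plus strand) and *Eed* (chr7:89954654-89980983, minus strand), which every PRC2 complex needs, did not pass the test in any comparison. *Suz12* had 185.6, 204.8, 198.4, and 196.3 CPM in the WT libraries, 197.3, 166.7, 183.6, and 128.9 CPM in the DKO-moderate libraries, and 174.9, 163.5, 160.8, and 178.9 CPM in the DKO-severe libraries. The DKO-severe libraries were all below the WT libraries, and the DKO-moderate libraries spread over both ranges and below them. The log2 difference was -0.21 (SE 0.11) for DKO-severe against WT, at an edgeR adjusted p of 0.128 that became 0.0275 without DKO-moderate 4, the library at 128.9 CPM. *Eed* had 83.7, 85.1, 92.9, and 75.2 CPM in the WT libraries, 85.7, 64.9, 84.9, and 83.1 CPM in the DKO-moderate libraries, and 71.5, 72.3, 77.1, and 76.2 CPM in the DKO-severe libraries, so that all groups overlapped, with a log2 difference of -0.18 (SE 0.10; adjusted p = 0.128) for DKO-severe against WT. Reads of *Eed* and *Rnf2* are uncertain to the extent that the annotation used here places a second gene model over each on the same strand.

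*Jarid2* (chr13:44729474-44921643, plus strand), an accessory subunit that helps to bring PRC2 to its sites, rose in DKO-severe. It had 77.2, 80.3, 92.3, and 93.0 CPM in the WT libraries, 82.4, 105.2, 100.2, and 90.7 CPM in the DKO-moderate libraries, and 111.5, 109.3, 110.7, and 116.5 CPM in the DKO-severe libraries. The 4 DKO-severe libraries were close together and above all 8 others. *Jarid2* was 1.31-fold higher in DKO-severe than in WT (log2 fold change 0.39, SE 0.09; edgeR adjusted p = 0.00344) and remained called in all 12 fits that left out 1 library. The difference between DKO-severe and DKO-moderate was 0.24 (SE 0.09; adjusted p = 0.0734, and 0.0394 without DKO-moderate 2), and that between DKO-moderate and WT was 0.14 (adjusted p = 0.291).

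Both ubiquitin ligase subunits of PRC1, *Ring1* (chr17:34020792-34024680, minus strand) and *Rnf2* (chr1:151458004-151500955, minus strand), fell in DKO-severe against WT, with small changes that 1 library could undo. *Ring1* had 39.2, 37.3, 29, and 34.7 CPM in the WT libraries, 25.9, 31.9, 28.4, and 37.1 CPM in the DKO-moderate libraries, and 27.2, 26.8, 30.1, and 26.7 CPM in the DKO-severe libraries. WT 3, at 29 CPM, lay below DKO-severe 3, and the other WT libraries were above DKO-severe. The log2 fold change of *Ring1* in DKO-severe against WT was -0.34 (SE 0.12; edgeR adjusted p = 0.0347), and the adjusted p was 0.0529 to 0.102 without any 1 of WT 1, WT 2, WT 4, and the 4 DKO-severe libraries.
*Rnf2* had 83.8, 88.0, 101.5, and 95.3 CPM in the WT libraries, 103.9, 90.5, 95.6, and 75.7 CPM in the DKO-moderate libraries, and 64.0, 86.6, 71.8, and 72.5 CPM in the DKO-severe libraries. DKO-severe 2 reached into the WT range, and the other DKO-severe libraries were below every WT and DKO-moderate library. The log2 fold change of *Rnf2* in DKO-severe against WT was -0.32 (SE 0.11; edgeR adjusted p = 0.0314), with an adjusted p of 0.0685 to 0.108 without any 1 of WT 3, WT 4, DKO-severe 1, DKO-severe 3, and DKO-severe 4. Against DKO-moderate it was -0.31 (adjusted p = 0.0722, and 0.0422 without DKO-severe 2 or 0.0363 without DKO-moderate 4). With library totals alone as the scaling, neither ligase passed (adjusted p = 0.357 for *Ring1* and 0.329 for *Rnf2*), and relative to the median gene under that scaling they were at -0.33 and -0.31. As a share of the *Ring1* and *Rnf2* sum per kilobase, *Rnf2* was 67.3% ± 4.63, 69.8% ± 6.12, and 67.5% ± 3.17 in WT, DKO-moderate, and DKO-severe.

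*Bmi1* (chr2:18677018-18686629, plus strand), the PCGF subunit known for restraining the *Cdkn2a* locus, had higher means in both knockout groups than in WT and passed the test in DKO-severe. It had 93.2, 98.4, 104.6, and 105.7 CPM in the WT libraries, 116.2, 151.3, 110.6, and 122.2 CPM in the DKO-moderate libraries, and 111.4, 123.7, 120.9, and 142.1 CPM in the DKO-severe libraries. All 8 knockout libraries were above all WT libraries, and the knockout groups overlapped. *Bmi1* rose 1.24-fold in DKO-severe against WT (log2 fold change 0.31, SE 0.11; edgeR adjusted p = 0.0271), with an adjusted p of 0.0634 to 0.0749 without any 1 of WT 1, WT 2, and DKO-severe 4. In DKO-moderate the log2 difference was 0.32 (SE 0.11) and missed the threshold (adjusted p = 0.0595, and 0.0384 without DKO-moderate 3), and between the knockout groups it was -0.01 (SE 0.11; adjusted p = 0.974).

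Of the CBX members of PRC1, which bind the PRC2 mark, *Cbx7* (chr15:79915807-79971119, minus strand) fell in DKO-severe and *Cbx2* (chr11:119022962-119031270, plus strand) did not pass the test. *Cbx7*, the most abundant PRC1 member per kilobase in WT, had 201.0, 192.7, 154.2, and 186.4 CPM in the WT libraries, 162.7, 182.7, 147.9, and 145.7 CPM in the DKO-moderate libraries, and 147.1, 150.2, 131.2, and 110.3 CPM in the DKO-severe libraries. All DKO-severe libraries were below all WT libraries, with WT 3 (154.2 CPM) and DKO-severe 2 (150.2 CPM) close to each other. *Cbx7* fell by 0.45 on the log2 scale in DKO-severe against WT (SE 0.12; edgeR adjusted p = 0.00756), and the change was -0.68 (adjusted p = 0.0033) without WT 3, DKO-severe 1, and DKO-severe 2. It missed the threshold with library totals alone (adjusted p = 0.0988). *Cbx2*, the least abundant member, had 14.8, 12.7, 14.2, and 13.6 CPM in the WT libraries, 10.8, 10.1, 13.8, and 13.8 CPM in the DKO-moderate libraries, and 16.6, 10.4, 13.3, and 23.2 CPM in the DKO-severe libraries. DKO-severe had the widest range, and no comparison of *Cbx2* passed (edgeR adjusted p = 0.448 for DKO-severe against WT, 0.567 for DKO-moderate against WT, and 0.201 for DKO-severe against DKO-moderate, which became 0.0457 without DKO-severe 2). The ratio of *Cbx2* to *Cbx7* reads was 0.0661 to 0.0923 in WT, 0.0552 to 0.0947 in DKO-moderate, and 0.0693 to 0.211 in DKO-severe, with a two-sided exact permutation p of 0.114 for DKO-severe against WT. The log2 difference of 0.59 behind this p was 0.29 without DKO-severe 4.

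**Figure D3:**
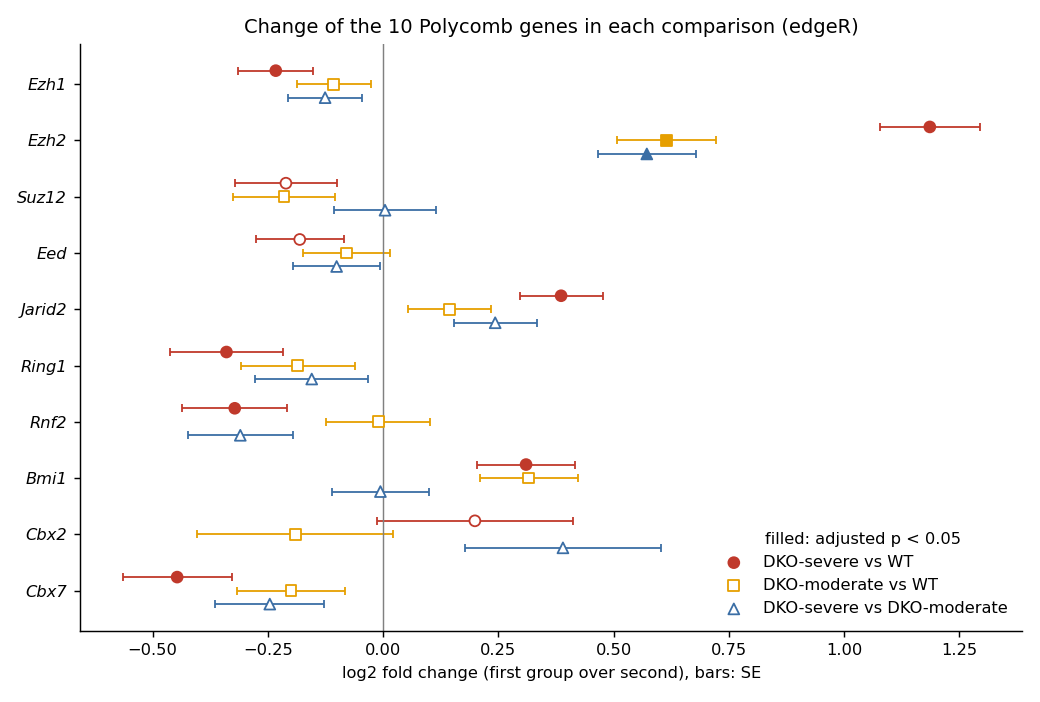
log2 fold change of the 10 Polycomb genes in each comparison (edgeR, TMM scaling; bars are SE; filled symbols have an adjusted p under 0.05). *Ezh2* is filled in all 3 comparisons, at 1.19, 0.61, and 0.57, and the other filled symbols belong to DKO-severe against WT and lie between -0.45 and 0.39.

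In total, 7 of the 10 members passed the test in DKO-severe against WT, 3 higher (*Ezh2*, *Jarid2*, and *Bmi1*) and 4 lower (*Ezh1*, *Ring1*, *Rnf2*, and *Cbx7*). This comparison called 52.6% of all genes tested, 26.6% higher and 25.9% lower, so a share of 7 in 10 is not far from the background. The ranges of 6 members did not overlap, compared with 51.9% of all genes. In DKO-moderate against WT, 1 member passed, *Ezh2*, with 17.1% of all genes called (12.3% higher and 4.74% lower), and 2 members (*Ezh2* and *Bmi1*) did not overlap, compared with 24.8% of genes. In DKO-severe against DKO-moderate, *Ezh2* again was the 1 member that passed, with 20.1% of genes called (9.41% higher and 10.7% lower), and 2 members (*Ezh2* and *Jarid2*) did not overlap, compared with 21.3% of genes. The median log2 fold change of the 10 members was -0.20, -0.09, and -0.05 in these comparisons, beside -0.005, 0.00, and -0.03 for all genes. Leaving out WT 3, DKO-severe 1, and DKO-severe 2, 4 members passed in DKO-severe against WT (*Ezh2*, *Jarid2*, *Bmi1*, and *Cbx7*), beside 43.1% of all genes in that fit. With terms for the neutrophil and B cell marker levels in the fit, 2 passed, *Ezh2* (log2 fold change 1.45, edgeR adjusted p = 0.000812) and *Cbx7* (-0.77, adjusted p = 0.0127), beside 18.6% of all genes.

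Level per kilobase of exon allows a rough comparison between genes. The lengths cover all GENCODE exons of a gene, whereas the annotation behind the counts is not given, so the 2 need not match. The ranks here and the shares per kilobase share this limit. By this measure *Suz12* was the most abundant member in WT at 39.7 ± 1.61 CPM per kilobase and did not overlap the next. *Cbx7* (28.3), *Bmi1* (25.3), *Rnf2* (22.3), and *Eed* (22.0) followed, each overlapping its neighbor, then *Ezh1* (13.9), *Ring1* (10.8), *Jarid2* (8.82), *Ezh2* (7.25), and *Cbx2* (3.25). In this order *Ring1* and *Jarid2* overlapped, and *Ezh2* and *Cbx2* did not. *Ezh2* was ninth of the 10 in WT, seventh in DKO-moderate (11.1 ± 0.569 CPM per kilobase), and sixth in DKO-severe (16.5 ± 2.86), where its range lay above that of *Ezh1* (11.8 ± 0.885) and overlapped that of *Rnf2* (17.9 ± 2.28). In DKO-moderate *Ezh1* was still above *Ezh2*, with no overlap.

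The other 38 Polycomb genes examined are the PRC2 partners, the remaining subunits of canonical and variant PRC1, and the enzymes that remove the 2 histone marks. All 38 passed the filter on low counts. In DKO-severe against WT, 6 rose and 15 fell (55.3% called), with a median log2 fold change of -0.29. In DKO-moderate against WT, 4 rose and 6 fell (26.3%), with a median of -0.17. There 17.1% of all genes were called, 12.3% higher and 4.74% lower. In DKO-severe against DKO-moderate, 2 rose and 8 fell (26.3%), with a median of -0.14. That comparison called 20.1% of all genes, 9.41% higher and 10.7% lower. The share called in DKO-severe against WT is close to that of all genes (52.6%). By direction it is less even: all genes had 26.6% higher and 25.9% lower, beside 6 and 15 of the 38. Without WT 3, DKO-severe 1, and DKO-severe 2 these counts were 18, 8, and 4, beside 43.1%, 16.5%, and 13.3% of all genes called. With the marker terms they were 8 in DKO-severe against WT and 0 in DKO-severe against DKO-moderate, where the same fits called 18.6% and 1.01% of all genes, so these counts moved with those over all genes.

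**Figure D4:**
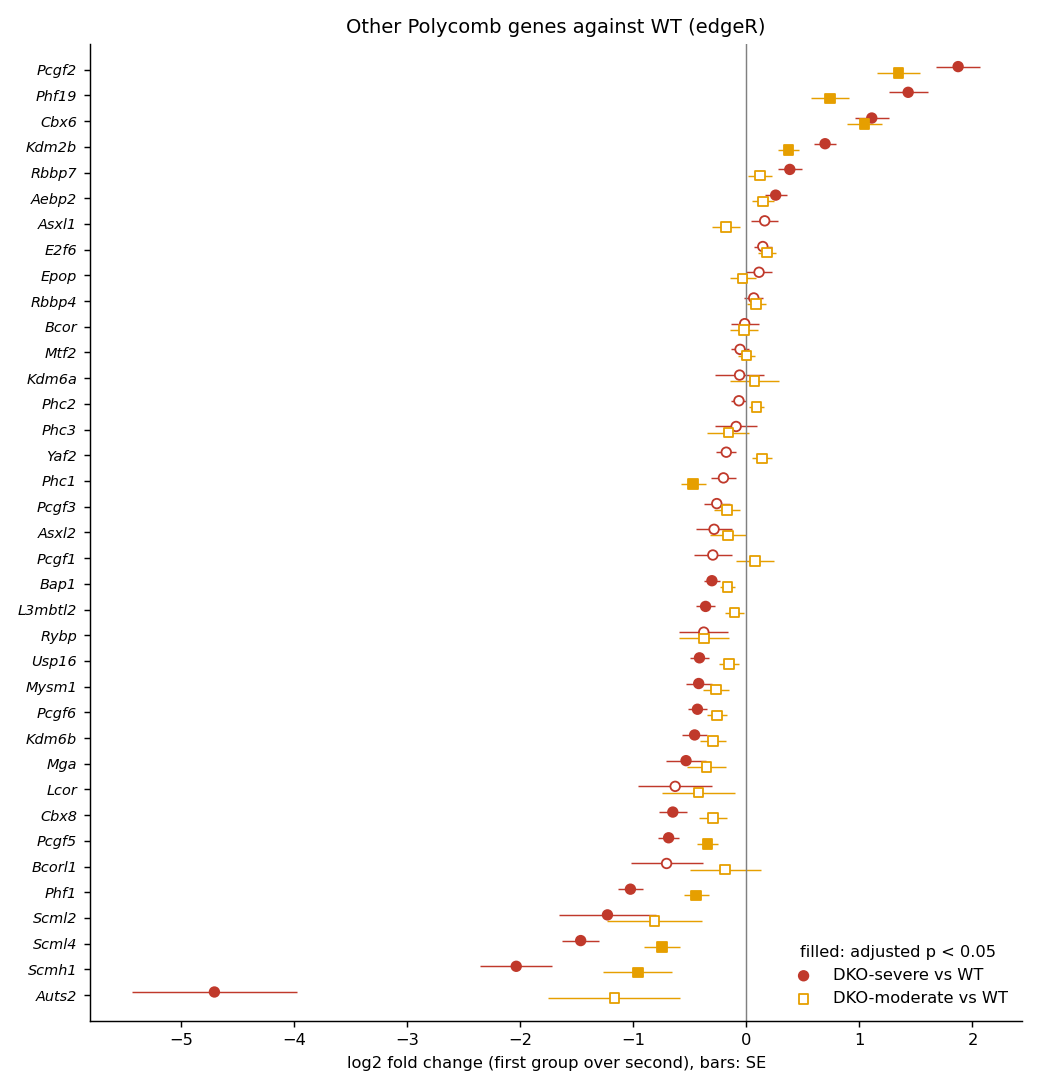
log2 fold change of other Polycomb genes in DKO-severe (circles) and DKO-moderate (squares) against WT (edgeR; bars are SE; filled symbols have an adjusted p under 0.05), ordered by the change in DKO-severe. *Pcgf2*, *Phf19*, *Cbx6*, and *Kdm2b* are highest and filled in both comparisons, and *Auts2*, at -4.71, is lowest and rests on few reads.

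Among the PRC2 partners, the Polycomb-like proteins PHF1, MTF2, and PHF19, which are alternatives to each other in PRC2, did not move together. *Phf19* had 4.71, 5.39, 5.09, and 5.08 CPM in the WT libraries, 7.92, 7.25, 7.60, and 11.1 CPM in the DKO-moderate libraries, and 13.1, 12.7, 12, and 16.9 CPM in the DKO-severe libraries, so that the 3 groups did not overlap. *Phf19* rose 2.7-fold in DKO-severe (log2 fold change 1.43, SE 0.17; edgeR adjusted p = 4.23e-05) and 1.67-fold in DKO-moderate (0.74, SE 0.17; adjusted p = 0.0115) against WT. Between the knockout groups it was higher by 0.69 in DKO-severe (adjusted p = 0.0157, not called without DKO-moderate 3). *Phf1*, named here after its values were seen as the counterpart of *Phf19*, fell from 170.8 ± 24.4 CPM in WT to 125.5 ± 7.16 CPM in DKO-moderate and 83.9 ± 9.93 CPM in DKO-severe, by 1.03 on the log2 scale in DKO-severe against WT (SE 0.11; edgeR adjusted p = 2.36e-05). *Mtf2*, also named after its values were seen, was at 89.9 ± 1.34, 90.1 ± 2.27, and 86.5 ± 9.53 CPM.

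The paralogs of the CBX members did not all move in one direction. *Cbx6*, a further CBX subunit, had 49.4, 50.9, 50.9, and 63.4 CPM in the WT libraries, 83.8, 146.6, 94.8, and 118.0 CPM in the DKO-moderate libraries, and 123.3, 112.4, 118.9, and 108.5 CPM in the DKO-severe libraries. It rose in both knockout groups against WT (log2 fold change 1.11, SE 0.15, adjusted p = 0.000105 in DKO-severe; 1.05, SE 0.15, adjusted p = 0.00102 in DKO-moderate), and the knockout groups overlapped (0.06, SE 0.15, adjusted p = 0.789). *Cbx8*, also a CBX subunit, fell in DKO-severe by 0.65 (edgeR adjusted p = 0.000965). Reads of *Cbx6* are uncertain in the way given for *Eed* and *Rnf2*, since another gene model overlaps it on the same strand. Among the other genes named, this also holds for *Phf1*, *Scml4*, *Pcgf5*, *Kdm2b*, and *Auts2*.

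*Pcgf2*, the closest paralog of *Bmi1*, had 2.27, 2.87, 3.02, and 3.72 CPM in the WT libraries, 7.10, 8.95, 5.74, and 8.4 CPM in the DKO-moderate libraries, and 12, 10.8, 10.9, and 9.93 CPM in the DKO-severe libraries. The groups did not overlap, and it rose 3.66-fold in DKO-severe (log2 fold change 1.87, SE 0.19; edgeR adjusted p = 1.75e-05) and 2.54-fold in DKO-moderate (1.34, SE 0.19; adjusted p = 0.000929) against WT. Between the knockout groups, *Pcgf2* differed by 0.53 (SE 0.19) and did not pass (edgeR adjusted p = 0.0651). Its share of the sum of the 6 PCGF genes per kilobase was 1.81% ± 0.318, 4.06% ± 0.462, and 6.22% ± 0.789 in WT, DKO-moderate, and DKO-severe, beside 54.6% ± 3.21, 59.9% ± 2.61, and 62.7% ± 3.20 for *Bmi1*. *Pcgf5* and *Pcgf6*, subunits of variant PRC1, fell in DKO-severe against WT, by 0.69 (edgeR adjusted p = 0.000109) and 0.43 (adjusted p = 0.00143) on the log2 scale. *Pcgf1* and *Pcgf3* were at -0.30 and -0.26 in that comparison and did not pass (adjusted p = 0.157 and 0.0742).

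**Figure D5:**
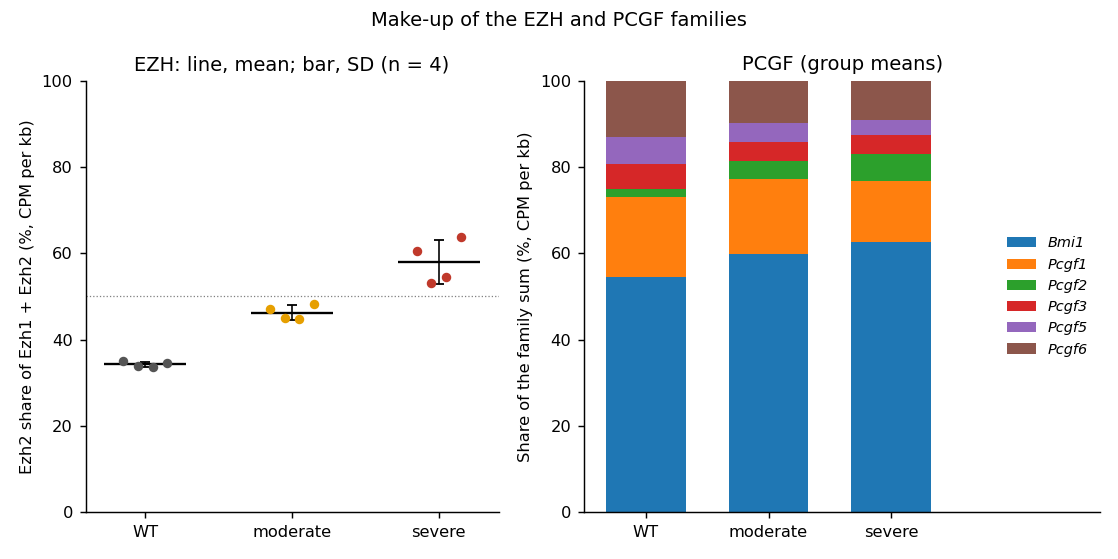
Share of *Ezh2* in the *Ezh1* and *Ezh2* sum per library (left; line, mean; bar, SD; the dotted line is at 50%), and mean shares of the PCGF genes in their family sum (right), both from CPM per kilobase, in WT, DKO-moderate, and DKO-severe. *Ezh2* passes from 34.3% to 46.3% and 58.0%, and *Bmi1* holds the largest PCGF share in each group, 54.6%, 59.9%, and 62.7%.

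*Kdm2b*, which brings variant PRC1 to unmethylated CpG islands, had 46.5, 45.5, 47.3, and 51.5 CPM in the WT libraries, 64.3, 56.8, 69.2, and 56.9 CPM in the DKO-moderate libraries, and 69, 89.0, 74.4, and 76.7 CPM in the DKO-severe libraries. Both knockout groups were above WT throughout, and *Kdm2b* rose by 0.70 in DKO-severe (SE 0.09; edgeR adjusted p = 9.55e-05) and by 0.37 in DKO-moderate (SE 0.09; adjusted p = 0.0177, not called without WT 1 or without WT 2). Of the SCM-related genes, *Scml4* fell from 244.1 ± 5.28 CPM in WT to 145.5 ± 41.3 CPM in DKO-moderate and 88.4 ± 7.34 CPM in DKO-severe, by 1.47 in DKO-severe against WT (SE 0.16; adjusted p = 2.89e-05). *Scmh1* was at 20.5 ± 0.955, 10.5 ± 4.34, and 4.98 ± 1.85 CPM and fell by 2.04 in DKO-severe against WT (SE 0.32; adjusted p = 0.000247). Its call in DKO-moderate against WT (log2 fold change -0.96, adjusted p = 0.0498) was lost without any 1 of the WT libraries, DKO-moderate 1, DKO-moderate 2, DKO-moderate 4, DKO-severe 3, or DKO-severe 4.
*Auts2*, a variant PRC1 partner known from neurons, had 41, 46, 44, and 45 reads in the WT group, 31, 6, 36, and 14 in DKO-moderate, and 1, 0, 1, and 5 in the DKO-severe group. In DKO-severe it stayed under the 10 reads that the filter asks over a group. It was thus tested only through the groups where it was high, and its lower level in DKO-severe is a description. The counts of genes that fell include its call, which was lost with the marker terms. *Phc1*, a Polyhomeotic subunit, fell in DKO-moderate against WT (log2 fold change -0.47, adjusted p = 0.0137), with -0.20 in DKO-severe against WT (adjusted p = 0.143). By role, 3 of 8 PRC2 partners rose and 1 fell in DKO-severe against WT, which called 26.6% of all genes higher and 25.9% lower. Of canonical PRC1, 2 of 10 rose and 5 fell, and of variant PRC1, 1 of 13 rose and 5 fell. Of the 5 H2A deubiquitinase genes, 3 fell, and of the 2 demethylase genes, 1 fell. With so few genes per role, these counts are a description.

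Loci known as Polycomb targets were counted as well: 39 HOX genes, *Cdkn2a*, *Cdkn2b*, *Tbx21*, *Eomes*, and *Gata3*. Of these 44, 18 passed the filter on low counts, 13 of them HOX genes. Since a gene can pass through 1 group alone, the counts that follow are a description of those 18. In DKO-severe against WT, 5 were called higher and 6 lower, beside 26.6% and 25.9% of all genes tested. In DKO-moderate against WT, 4 were called higher, beside 12.3% of all genes. In DKO-severe against DKO-moderate, 1 was called higher and 1 lower, beside 9.41% and 10.7% of all genes. *Cdkn2a*, which encodes the cell cycle inhibitors p16 and p19, had 9, 6, 15, and 14 reads in the WT group, 59, 45, 39, and 61 in DKO-moderate, and 64, 118, 113, and 112 in the DKO-severe group. Its mean level was 0.316 ± 0.110, 1.39 ± 0.295, and 2.76 ± 0.625 CPM, and the groups did not overlap. It rose 8.61-fold in DKO-severe (log2 fold change 3.11, SE 0.34; edgeR adjusted p = 2.26e-05) and 4.35-fold in DKO-moderate (2.12, SE 0.33; adjusted p = 0.00134) against WT.

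The other target genes with the largest differences had few reads, and 3 of those named next passed the filter only through the group in which they were high, so their values are a description with no test. *Hoxb2* had no read in any WT library, 0, 62, 1, and 145 reads in DKO-moderate, and 9, 19, 92, and 59 in DKO-severe. Against 3 reads over the pooled WT libraries, it was at least 55.5-fold higher in DKO-severe and at least 64.5-fold higher in DKO-moderate, where DKO-moderate 2 and DKO-moderate 4 carried nearly all reads. *Hoxb3* had 2, 0, 2, and 4 reads in the WT group, 6, 20, 7, and 19 in DKO-moderate, and 14, 13, 25, and 58 in the DKO-severe group. *Hoxa2* had 17 reads over WT and 1 over DKO-severe (ratio 0.0547, exact 95% interval 0.00131 to 0.349, which covers counting error only). *Hoxa5*, which had at least 10 reads in each group and was singled out after its values were seen, had 28, 16, 29, and 33 reads in WT, 12, 6, 35, and 13 in DKO-moderate, and 3, 3, 8, and 6 in DKO-severe, and it fell in DKO-severe against WT (edgeR adjusted p = 0.00143), a call lost with the marker terms.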

How the data were processed

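Directional RNA-seq libraries were sequenced by the authors as paired ends, aligned to mm10 with STAR 2.7.11 keeping reads with a single position, and counted per gene with htseq-count in reverse strand mode. The deposited values are raw read counts without normalization, and the annotation behind them is not given in the sources used here. Summary lines, at 18.53% to 23.73% of a library, were left out. Genes with at least 10 reads over the libraries of 1 or more groups were tested. All 12 libraries entered 1 fit in edgeR 4.0.16 (R 4.3.3; TMM scaling, quasi-likelihood F test, Benjamini-Hochberg over 16035 genes). Standard errors were obtained from the log2 fold change and the F statistic. DESeq2 1.42.0 and limma 3.58.1 (voom) served as alternatives. Ratios were compared by exact permutation tests in Python 3.11.15 with scipy 1.17.1. Exon lengths and overlaps came from GENCODE M21 (GRCm38), and promoters from RefSeq (GRCm38.p6).

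The 10 members, the gene lists, and the motifs were chosen with earlier results of these data known. Named genes are the members, up to 4 other Polycomb genes per direction and comparison with the largest called change, paralogs of members, *Cdkn2a* and up to 4 other called targets, the 5 genes most like *Ezh1* and *Ezh2* (Pearson r, log2 CPM with a prior count of 2), and *Mki67*. Some genes of these lists are not reported here by name, although the counts over the lists include them. Plasma cell, monocyte and macrophage, erythroid, and CD8 T cell markers were also summed, with ranges in DKO-severe of 51.2 to 197.8, 64.3 to 358.8, 11.7 to 47.1, and 1.03 to 13.2 CPM, against 0.69 to 89.1, 4.51 to 180, 0.287 to 19.9, and 16.8 to 26.7 CPM in WT. *Trac*, *Trbc1*, *Trbc2*, and *Hbb-bt* were not analysed here. No 2 libraries of a group were copies: their counts differed by a chi-square of 22.9 or more per degree of freedom. The labels name no batch. The fits were tested on simulated data. Intervals and bounds cover counting error only.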

Additional observations from a re-analysis of the deposited data

Results flagged for a closer look

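In 36 sets of 4 libraries (each member in each group, and the ratios), the highest or lowest library was compared with its neighbors, and 3 stood apart, where chance alone marks about 1 in 20. *Ezh2* was at 52.4 CPM in WT 4, the highest WT value, against 47.0, 47.0, and 47.3 CPM in the other WT libraries, and all 4 remained below every DKO-moderate library. *Eed* was at 64.9 CPM in DKO-moderate 2, the lowest of that group, against 83.1, 84.9, and 85.7 CPM. *Ring1* was at 30.1 CPM in DKO-severe 3, the highest of that group, against 26.7, 26.8, and 27.2 CPM.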

How the results depend on the processing

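In DKO-severe against WT, 7 of the 10 members were called in the reported fit. The count over the 10 members was 4 with DESeq2, 4 with DESeq2 size factors in edgeR, 3 with library totals alone, 2 with terms for neutrophil and B cell markers, 4 without WT 3, DKO-severe 1, and DKO-severe 2 (chosen after seeing the data), and 3 at an adjusted p under 0.01, beside 52.9%, 51.4%, 51.2%, 18.6%, 43.1%, and 36.7% of all genes called. Leaving out 1 library gave 3 (without DKO-severe 4) to 8 (without DKO-moderate 4), with 4 without WT 2, WT 4, or DKO-severe 1. The 1 call in DKO-moderate against WT became 2 with DESeq2, voom, and library totals alone, and 1 to 2 without 1 library (2 without DKO-moderate 3). The 1 call in DKO-severe against DKO-moderate became 2 with DESeq2, DESeq2 size factors, and library totals alone, 3 with voom, and 1 to 3 without 1 library (2 without DKO-moderate 2 or DKO-moderate 4, 3 without DKO-severe 2). *Ezh2* was among the calls in every fit. For the other 38 Polycomb genes, DKO-severe against WT gave 8 with the marker terms (18.6% of all genes called) and 18 to 25 without 1 library. DKO-moderate against WT gave 4 at an adjusted p under 0.01 (7.12%) and 6 to 10 without 1 library. DKO-severe against DKO-moderate gave 17 with voom (38.2% of all genes called, against 20.1% in the reported fit), 6 with only the libraries compared (13.6%), 0 with the marker terms (1.01%), 4 without the 3 libraries (13.3%), 3 at an adjusted p under 0.01 (5.77%), and 5 to 13 without 1 library (10.3% to 23%).

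The replicate numbers did not pair the libraries: residuals of libraries with the same number had a median correlation of -0.0342 over 12 pairs. With the replicate block, the last count was 6 (14.5% of all genes called), and the *Ezh2* to *Ezh1* log2 differences were 1.408, 0.724, and 0.684, each with an exact sign-flip p of 0.125, the smallest that 4 pairs allow.

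Without WT 3, DKO-severe 1, and DKO-severe 2 these differences were 1.466 (exact permutation p = 0.2), 0.71 (p = 0.0571), and 0.756 (p = 0.133), the smallest p each design allows, and without 1 library they were 1.29 to 1.504, 0.685 to 0.754, and 0.566 to 0.78. The *Cbx2* to *Cbx7* difference of DKO-moderate against WT was 0.091 without the 3 libraries and -0.115 to 0.145 without 1 library. That of DKO-severe was 0.291 to 0.825 against WT and 0.295 to 0.83 against DKO-moderate.

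Signs turned only for differences that were not called. *Eed* in DKO-severe against WT was 0.004 with library totals alone and 0.002 with the marker terms, and against DKO-moderate 0.01 and 0.035. *Rnf2* in DKO-moderate against WT was 0.092 with voom, 0.062 with library totals alone, 0.041 with the marker terms, and 0.038 without the 3 libraries. In DKO-severe against DKO-moderate, *Ezh1* was 0.007 with the marker terms, *Suz12* was -0.115 with voom, and *Bmi1* was 0.066 with DESeq2, 0.068 with voom, 0.066 with DESeq2 size factors, 0.094 with library totals alone, 0.007 with edgeR's filterByExpr, 0.006 with only the libraries compared, 0.018 with the marker terms, and 0.076 without the 3 libraries. Without 1 library, *Cbx2* in DKO-severe against WT was -0.014 to 0.381, *Eed* and *Rnf2* in DKO-moderate against WT were -0.131 to 0.006 and -0.078 to 0.062, and *Suz12* and *Bmi1* in DKO-severe against DKO-moderate were -0.069 to 0.086 and -0.061 to 0.098. The causes were not tested. Library totals alone moved the median of all genes in DKO-severe against WT from -0.01 to 0.18, and calls over all genes from 4270 higher and 4158 lower to 5460 and 2756.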
